A study of Mus musculus with 10 samples.

Results

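Nephron progenitors of the mouse embryo were followed into long culture: cells kept for 19 days were set against the population they came from. The comparison rests on 4 of the 10 arrays of the series: 2 of Six2-GFP-positive cells sorted from mid-gestation embryos (stage E11.5) and then held for 19 days in a conditioned medium, called here the 19-day culture, and 2 of freshly sorted Six2-GFP-positive cells of the same stage, called the E11.5 progenitors. They were chosen by their labels and described over all 26222 genes tested, with a pair of arrays of an 8-day culture, also in conditioned medium, as the time between. All 3 groups came from Six2-GFP transgenic embryos on a C57BL6J/ICR background, in which green fluorescent protein reports the Six2 gene, and the remaining arrays held Six2-GFP-positive and Six2-GFP-negative newborn cells. The labels do not name the medium's source or composition, whether the cultured cells were sorted again before RNA was taken, or whether the 2 arrays of a group came from separate cultures or litters. The p-values below therefore measure the spread between arrays of a group, pooled over all 5 groups of the series, a spread that may be technical.

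Nephron progenitors are the mesenchymal cells that cap the tips of the branching ureteric bud. They express the transcription factors Six2, Pax2, Sall1 and Wt1, divide while they remain undifferentiated, and turn into the epithelium of the nephron when Wnt signals reach them. Signals of the fibroblast growth factor, bone morphogenetic protein and Wnt families hold the balance between renewal and differentiation, and media for keeping these cells outside the embryo supply combinations of such signals.

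Each array was a single-colour Agilent mouse design read with Cy3. Values below are log2 intensities relative to the 75th percentile of their own array, so 0 stands for that percentile, and levels of different probes are not comparable. Between 60.4% and 69.8% of the 59305 spots that are no control were well above background on the 10 arrays, and none was saturated. The 2 arrays of the E11.5 progenitors differed by a root mean square of 1.22 log2 units over the genes tested, those of the 8-day culture by 1.07 and those of the 19-day culture by 0.97, against 1.66 to 1.73 between a 19-day and an E11.5 array. The newborn pairs, which the fit pools with these, differed by 0.83 (Six2-GFP-positive) and 0.90 (Six2-GFP-negative). The labelled cell type was checked on Six2 itself: the E11.5 arrays had 4.70 and 4.82, and the newborn Six2-GFP-negative cells had -2.26 and -4.55. Both 19-day arrays lay on one slide and both E11.5 arrays on the other, so slide and group cannot be told apart in a direct comparison. The 8-day culture had 1 array on each slide and links them, and only values fitted with slide as a block use that link. In such bulk RNA, fewer cells of a type and less RNA per cell cannot be told apart.

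Of the genes tested, 1902 (7.25%) were higher and 2518 (9.6%) lower in the 19-day culture than in the E11.5 progenitors, together 16.9% (limma group means over the 10 arrays, two-sided, Benjamini-Hochberg adjusted p under 0.05). Without the first 19-day array the counts were 1076 and 1299, and with slide as a fixed block 696 and 796. The 8-day culture had 725 genes higher (2.76%) and 540 lower (2.06%) against the same 2 E11.5 arrays. The 19-day culture differed from the 8-day culture in 2124 genes (8.1%), 704 higher (2.68%) and 1420 lower (5.42%), a count of 917 without the first 19-day array and 882 without the second 8-day array. The median change over all genes at 19 days was 0.006 log2 units with this scaling and -0.17 after normexp background correction. The brightest 10% of the genes had a median change of -0.35 with the 75th-percentile scaling and -0.065 after quantile normalization, which bears on the small falls of strongly expressed genes given below. "At least N-fold" is used where 1 group was not well above background with any probe of a gene on either array. It sets the brighter group's mean against the mean, over the other group's arrays, of the higher of the lowest signal well above background on that array and the dim probe's own signal.

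**Figure D1:**
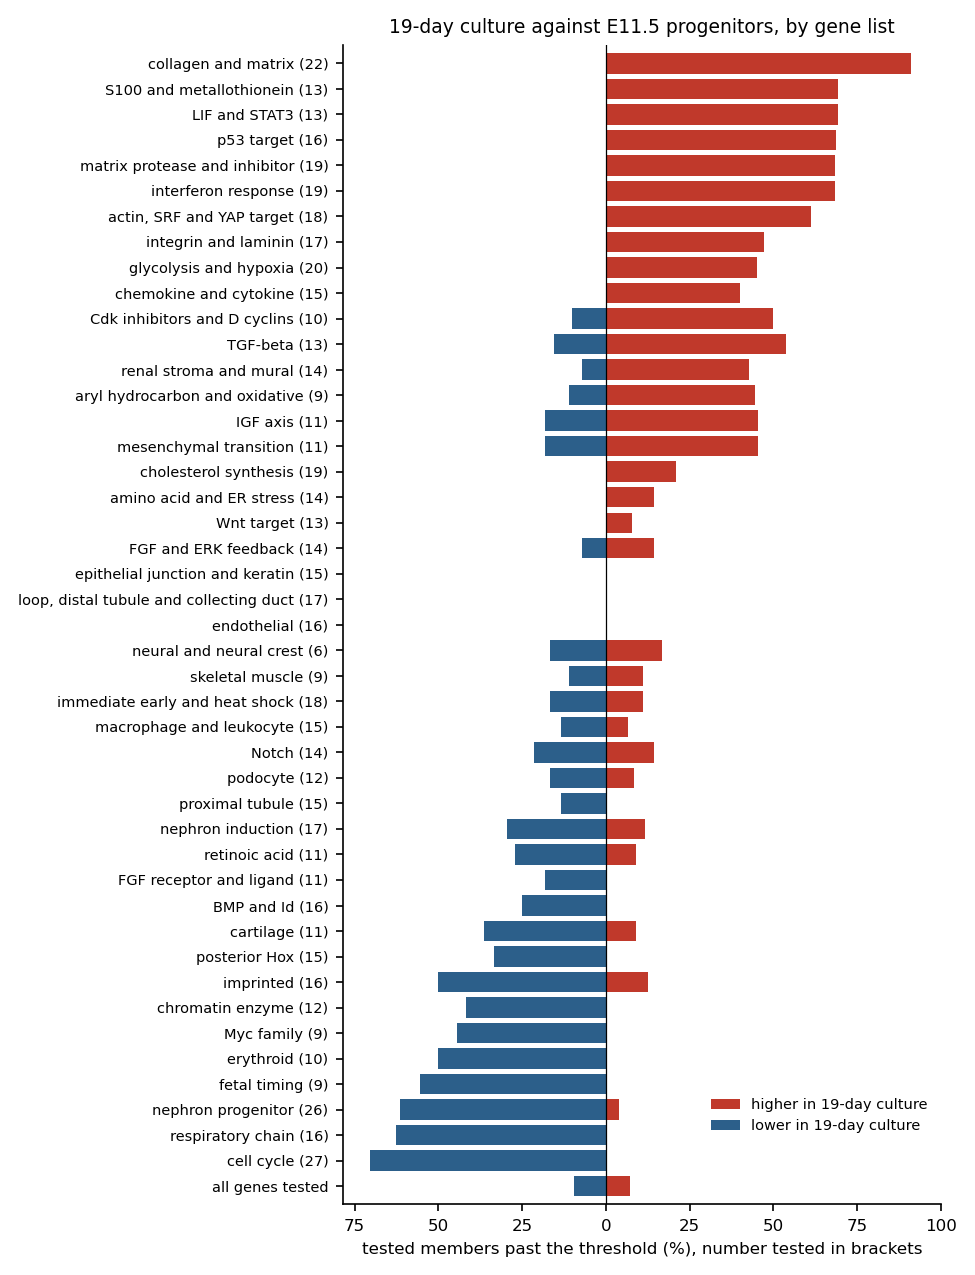
Share of tested members of each gene list higher (red, to the right) or lower (blue, to the left) in the 19-day culture than in the E11.5 progenitors, in percent, with the number of members tested in brackets. Collagen and matrix genes lead the rises with 20 of 22 members, and cell cycle genes lead the falls with 19 of 27. The bottom bar gives the same shares over all genes tested, 7.25% and 9.6%. The lists were chosen with earlier results of these data known, so their order only describes them.

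Of the 26 nephron progenitor genes tested, 16 were lower in the 19-day culture and 1 was higher, with a median log2 change of -2.62. The count of lower members was 10 to 14 when any 1 of the 4 arrays was left out, lowest without the first 19-day array or either E11.5 array, and 8 with slide as a fixed block. Meox1, a homeobox factor of early cap mesenchyme, stood at -5.60 and -6.67 on the 19-day arrays, not well above background, against 3.70 and 3.98 on the E11.5 arrays. It was at least 806-fold lower (adjusted p = 5.61e-05, limma). Foxc2, a forkhead factor of nephrogenic mesenchyme, was at -3.92 and -1.34 in the 19-day culture and 4.999 and 5.64 in the E11.5 progenitors, a change of -7.95 ± 0.80 (log2, SE; limma adjusted p = 0.0011), and its relative Foxc1 fell by 2.37 on the same scale. Sall1, a zinc finger factor required for the ureteric bud to invade the mesenchyme, was at -2.90 and -0.27 in the 19-day culture and 3.85 and 4.36 in the E11.5 progenitors, a change of -5.69 ± 0.72. In these 4 genes the 19-day arrays lay wholly below the E11.5 arrays, although the 2 cultures were spread more widely than the sorted samples for Foxc2 and Sall1. Sall1 and Foxc1 lost the call with slide as a fixed block (adjusted p = 0.0557 and 0.0602, limma).

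Pax2, the paired-box factor that sets up the nephric lineage, had -1.25 and -1.21 in the 19-day culture and 4.56 and 4.21 in the E11.5 progenitors, a change of -5.62 ± 0.23 (limma adjusted p = 4.52e-05). Its 3 probes changed by -5.62 to -2.87, and the 8-day culture differed from the E11.5 progenitors by -5.60. Cited1, a transcriptional co-regulator that marks the least differentiated progenitors, was at 0.60 and -0.48 in the 19-day culture and 3.002 and 3.64 in the E11.5 progenitors, and changed by -3.26 ± 0.53. Six2 itself, which keeps progenitors from differentiating, was at 1.06 and 2.32 in the 19-day culture and 4.70 and 4.82 in the E11.5 progenitors. Its change of -3.07 ± 0.71 passed the threshold with an adjusted p of 0.0252 (limma) and no longer did so without the first 19-day array or without either E11.5 array, where the adjusted p reached 0.136 and the change over all fits with 1 array left out was -3.70 to -2.44. In the slide-block fit the change of Six2 was -2.46 ± 1.30 and the call was lost too (adjusted p = 0.337, limma). At 8 days Six2 differed by 0.15 from the E11.5 level, and the 19-day culture lay below the 8-day culture (-3.22, adjusted p = 0.0351, limma).

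Among the secreted signals of the progenitors, Bmp7, which supports their survival and renewal, was at -6.01 and -5.65 in the 19-day culture and 0.88 and 0.22 in the E11.5 progenitors, at least 83.1-fold lower. Fgf20, a growth factor that maintains the progenitors, was at least 60.8-fold lower, a call lost without the first 19-day array (adjusted p = 0.0513). Gdnf, the ligand that draws out the ureteric bud, was at least 36.9-fold lower, a call that held in 1 of the 4 fits with an array left out. The receptor Robo2, which limits where Gdnf is made, fell by 3.92 (call lost without the first E11.5 array, adjusted p = 0.0507). Calls for Osr1 (-2.86), Crym (-7.45), Eya4 (-3.14), Uncx (-1.19) and Wt1 (-0.93) were each lost in at least 2 of those 4 fits, with adjusted p up to 0.163, 0.129, 0.21, 0.0596 and 0.141 in the same order. Those 5 and Robo2 also lost the call with slide as a fixed block (adjusted p = 0.144 to 0.745, limma), where Wt1 changed by -0.23 and Eya4 by -0.91. Crym was at -6.92 and 0.86 on the 2 cultures.

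The 9 progenitor genes that did not pass the threshold were Eya1 (-0.28), Itga8 (-0.96), Fgf9 (not well above background in either group), Tmem100 (-0.48), Dpf3 (-0.21), Pla2g7 (-1.32), Gas1 (0.53), Ncam1 (1.36) and Bmper (0.41). Bmper, a modulator of bone morphogenetic protein signals, had been lower at 8 days (-8.16), and the 19-day culture stood above the 8-day culture by 8.57 (adjusted p = 0.00199, limma).

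**Figure D2:**
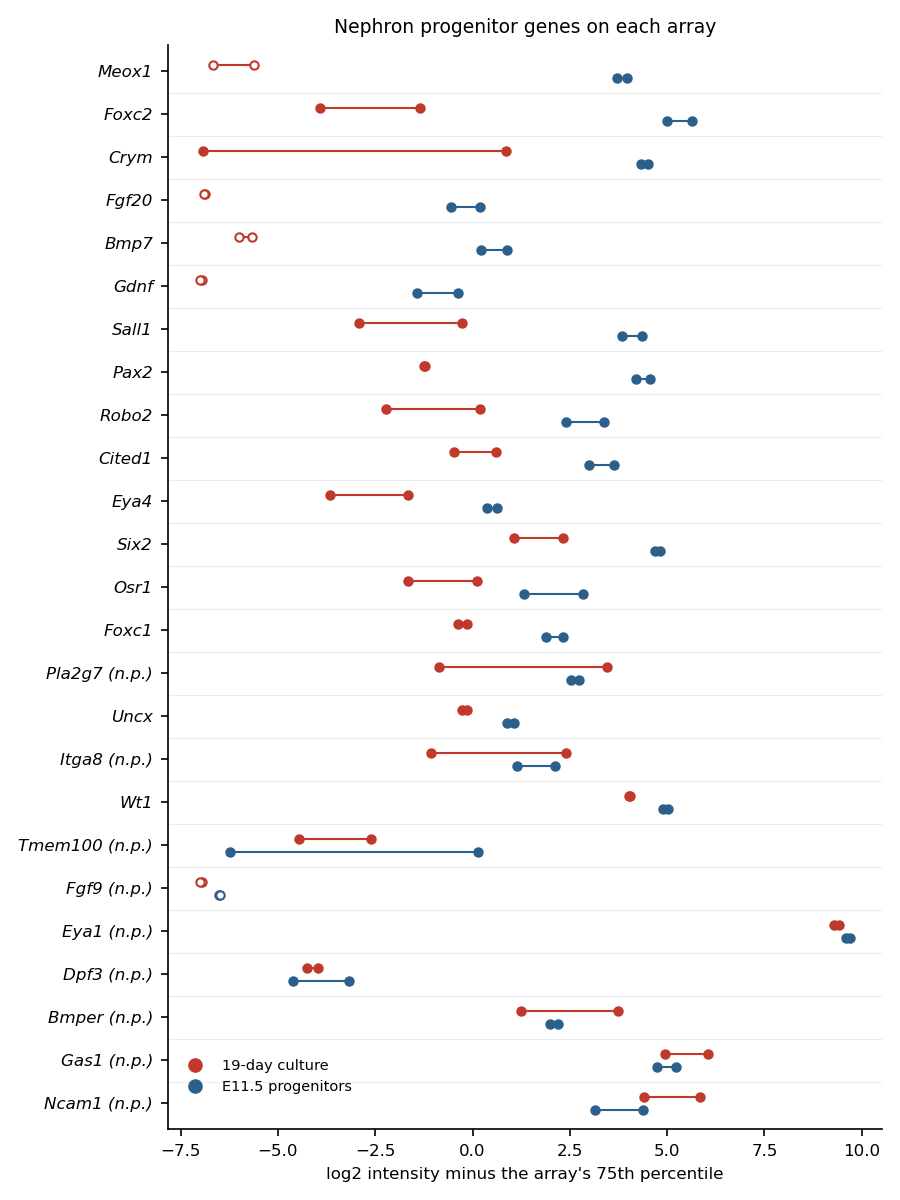
Log2 intensity of 25 nephron progenitor genes on each array, relative to the array's 75th percentile, with the 2 arrays of a group joined by a line (red, 19-day culture, above; blue, E11.5 progenitors, below). Open points mark genes not well above background on either array of the group, and n.p. marks the 9 genes not past the threshold; Meox1 at the top shows the widest gap between the groups.

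Of 15 posterior Hox genes, which set position along the trunk, 5 were lower and none higher, and the median change was -0.64. Hoxd12 was at -2.31 and -2.71 in the 19-day culture and 2.15 and 1.22 in the E11.5 progenitors (-4.19 ± 0.47), and Hoxb9 at -0.48 and -2.43 on the 19-day arrays and 2.12 and 2.70 on the E11.5 arrays (-3.86 ± 0.62). Hoxc10 fell by 2.18. With slide as a fixed block none of the 5 passed, and 3 to 5 did when 1 of the 4 arrays was left out, fewest without the second 19-day array.

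Of 17 genes of nephron induction, the step from mesenchyme to epithelium, 5 were lower and 2 higher. Without the first 19-day array or the first E11.5 array 3 were lower and 1 higher, and without the second E11.5 array 3 were lower. Under a fixed slide block 1 member was lower and none higher. Sfrp2, a secreted modulator of Wnt signals, was at -6.55 and -2.93 in the 19-day culture and 4.85 and 4.85 in the E11.5 progenitors, a change of -9.59 ± 0.95 (limma adjusted p = 0.00103). The Notch target Hey1 changed by -2.70 and the cadherin Cdh4 by -4.02, and both passed in each fit with 1 of the 4 arrays left out but not with slide as a fixed block (adjusted p = 0.0522 and 0.0934, limma). Emx2, a homeobox factor of the urogenital tract, was at -0.76 and 0.50 in the 19-day culture. It was not well above background in the E11.5 progenitors, and so at least 40.4-fold higher in culture (limma adjusted p = 0.0085). It had the same direction at 8 days, with a fitted change of 6.61 against 5.91 at 19 days. Its 19-day call was lost with the slide block (adjusted p = 0.0996, limma). Wnt4, the signal that the forming epithelium itself makes, did not pass (0.998).

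Markers of the differentiated nephron were set against the 16.9% called over all genes. Of the 26222 genes tested, 17409 had a RefSeq symbol, and the share called among those was not counted. None of 17 genes of the loop of Henle, distal tubule and collecting duct passed the threshold, and neither did any of 15 epithelial junction and keratin genes. Of the 17, 6 members had no probe above background in either group, and of the 15, 3 had none. Of 15 proximal tubule genes, 2 were lower, the endocytic receptor Lrp2 (at least 20.8-fold, adjusted p = 0.0182, limma) and the scaffold Pdzk1 (-1.55), and each call was lost without either 19-day array, with adjusted p up to 0.0802 and 0.115, and with slide as a fixed block (0.231 and 0.107). Among 12 podocyte genes 1 was higher and 2 lower, counts that were 2 and 1 without the first 19-day array, and 1 was lower without the second array of either group or with slide as a fixed block. Synpo, an actin-binding protein of the foot process, was the higher one, at 1.13 and 0.46 in the 19-day culture and -4.03 and -5.45 in the E11.5 progenitors. Its 3 probes changed by 0.62 to 5.53. The 2 lower members changed by -1.87 and -1.17, and the median change of the 12 was 0.46. Their summed scaled intensity was 14.5 and 19.1 in the 19-day culture and 35.6 and 31.7 in the E11.5 progenitors.

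Markers of cells other than nephron progenitors moved as well. The summed scaled intensity of 10 erythroid genes was 1.39 and 1.81 on the 19-day arrays, against 68.4 and 22.7 on the E11.5 arrays. Embryonic globin Hbb-y was at -4.42 and -4.39 in the 19-day culture and 5.51 and 3.87 in the E11.5 progenitors (-9.10 ± 0.79, limma adjusted p = 0.000641), and Hba-x was at least 135-fold lower. Of the 10 genes 5 were lower, 3 without the first 19-day array or with slide as a fixed block. The first E11.5 array had the higher globin signal of its pair, and both lay above the 19-day arrays. Sums for 15 macrophage and leukocyte genes were 19.2 and 21.1 in the 19-day culture and 21.1 and 19.6 in the E11.5 progenitors, with 1 member higher and 2 lower. In the slide-block fit none passed in either direction, and 1 was lower without either 19-day array or the first E11.5 array. Tyrobp, a signalling adaptor of myeloid cells, fell by 4.64 (adjusted p = 0.0806 with the slide block, limma), and the 1 higher member rose by 4.73. The lysosomal macrophage marker Cd68 (0.86) did not pass. None of 16 endothelial genes passed, with sums of 9.25 and 8.16 in the 19-day culture and 11.1 and 5.65 in the E11.5 progenitors.

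Of 14 renal stroma and mural genes, which mark the fibroblast-like and perivascular cells around the nephrons, 6 were higher and 1 lower, and their sum was 73.6 and 99.5 in the 19-day culture, against 53.9 and 48.2 in the E11.5 progenitors. Pdgfra, the platelet-derived growth factor receptor of fibroblasts, was at 1.41 and 2.27 in culture and -6.16 and -6.28 in the sorted cells, at least 158-fold higher. Penk, which encodes opioid peptide precursors, was at 3.29 and 1.13 in the 19-day culture and -3.71 and -5.34 in the E11.5 progenitors (6.74 ± 0.89), and the calcium-binding matrix protein Smoc2 was at least 23.6-fold higher. Foxd1, which defines the embryonic stroma, was at -2.0 and -4.87 in the 19-day culture and 3.83 and 3.20 in the E11.5 progenitors, and fell by 6.95. It was well above background on both E11.5 arrays. Of the 14, 4 were higher and 1 lower with slide as a fixed block. When all 4 arrays had to be well above background, 1 was higher and none lower. Of 11 cartilage genes, 4 were lower and 1 higher, with Col2a1 at least 348-fold lower and its activator Sox9 changed by -2.66, whereas Col11a1 was at least 12.9-fold higher. Calls for Penk and Sox9 were lost with slide as a fixed block (adjusted p = 0.0983 and 0.0638, limma), where 3 cartilage genes were lower and 1 higher. The part of these other cell types in the results that follow was not tested.

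Genes of the extracellular matrix had the largest share of members past the threshold among the lists, which were chosen with earlier results of these data known. Of 22 collagen and matrix genes, 20 were higher in the 19-day culture and none lower, with a median log2 change of 4.65; 14 passed with slide as a fixed block and 18 to 19 with any 1 of the 4 arrays left out. Their summed scaled intensity was 1082 and 754 in the 19-day culture and 45.8 and 53.7 in the E11.5 progenitors. Col1a1, a chain of the main fibrillar collagen, was at 6.37 and 5.64 on the 19-day arrays and -1.002 and -1.51 on the E11.5 arrays, a change of 7.26 ± 0.36 (log2, SE; limma adjusted p = 9.98e-05). Its partner chain Col1a2 was at 7.58 and 7.12 on the 19-day arrays and -0.94 and -0.27 on the E11.5 arrays (7.95 ± 0.50). Col3a1, the collagen that accompanies both in loose tissue, was at 6.498 and 6.06 in the 19-day culture and -1.10 and -0.76 in the E11.5 progenitors (7.21 ± 0.33). All 3 lay far above the E11.5 arrays on both cultures.

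Biglycan (Bgn), a small proteoglycan that binds collagen, was at 5.92 and 5.44 in the 19-day culture and -4.66 and -4.50 in the E11.5 progenitors, where no array was well above background, and so was at least 1228-fold higher. Lox, the enzyme that cross-links collagen and elastin, rose by 7.85, and Thbs1, an adhesive glycoprotein, by 5.203. Postn, a matricellular protein of fibroblasts, was at least 39.7-fold higher. Col18a1, a basement membrane collagen, did not pass (1.22). Of the 22 members, 16 were higher in the 19-day than in the 8-day culture, against 2.68% of all genes. Thbs1 was 0.024 log2 units from its E11.5 level at 8 days.

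Enzymes that cut matrix and their inhibitors rose too, with 13 of 19 higher and none lower (median 2.61); 7 to 10 passed with 1 of the 4 arrays left out, fewest without the second 19-day array, and 10 with slide as a fixed block. Stromelysin Mmp3 was at 5.16 and 5.39 in the 19-day culture and -6.17 and -6.11 in the E11.5 progenitors, at least 1712-fold higher (limma adjusted p = 0.00239). Plau, the urokinase that activates plasminogen, was at 3.91 and 5.02 on the 19-day arrays and -6.28 and -6.28 on the E11.5 arrays, at least 977-fold higher. Neither was above background on an E11.5 array. The protease nexin Serpine2 rose by 5.59, the inhibitor Timp1 by 5.23 (adjusted p = 0.0600 with the slide block, limma), and the gelatinase Mmp2 by 3.44.

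Of 17 integrins and laminins, 8 were higher and none lower, among them the beta chain Itgb1 (1.53 ± 0.23), the alpha chain Itgav (1.90 ± 0.29) and the laminin chains Lamb1 (1.87 ± 0.31) and Lamc1 (1.62 ± 0.26). The count of higher members was 4 with slide as a fixed block, where Itgav and Lamc1 lost the call (adjusted p = 0.132 and 0.177, limma). Of 18 actin genes and targets of the factors SRF and YAP, 11 were higher and none lower; that count was 5 without the first 19-day array and 3 with slide as a fixed block. Acta2, the smooth muscle actin of activated fibroblasts, was at 4.88 and 2.90 in the 19-day culture and -2.74 and -3.003 in the E11.5 progenitors (6.77 ± 0.64, limma adjusted p = 0.000864). The matricellular protein Ccn2 was at 3.87 and 4.29 in the 19-day culture and -0.91 and -3.87 in the E11.5 progenitors (6.47 ± 0.93), and Tagln, an actin cross-linker of smooth muscle, at 5.73 and 4.04 on the 19-day arrays and 1.5 and 1.47 on the E11.5 arrays (3.40 ± 0.51). The first 19-day array was the higher of the pair for Acta2 and Tagln. Ccn2 and Tagln did not pass with the slide block (adjusted p = 0.0646 and 0.141, limma). Vcl, which links actin to adhesion sites, did not pass (1.33). In the mesenchymal transition list, 5 of 11 members were higher and 2 lower, and 2 were higher without the first 19-day or the second E11.5 array, 3 without the second 19-day array. With the slide block 3 were higher and 1 lower, and 1 was lower without the first array of either group. The intermediate filament Vim rose by 2.71 and N-cadherin (Cdh2) changed by -2.27. Twist2, a factor of mesenchyme, did not pass (1.18).

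The S100 calcium-binding proteins and metallothioneins held S100a6, the largest rise among called genes well above background on all 4 arrays. Of 13 genes, 9 were higher and none lower, with a median change of 3.18, and the same number passed with any 1 of the 4 arrays left out. S100a6, an S100 protein of growing fibroblasts, was at 8.43 and 8.55 in the 19-day culture and -2.42 and -3.27 in the E11.5 progenitors, a change of 11.33 ± 0.64 and a 2581-fold ratio (limma adjusted p = 0.00017). Mt1, which binds zinc and other metals, was at 6.54 and 6.25 in the 19-day culture and -3.14 and -2.41 in the E11.5 progenitors (9.17 ± 0.37). Mt2, its neighbour on chromosome 8, was at 8.03 and 7.60 on the 19-day arrays and -0.31 and 0.086 on the E11.5 arrays (7.93 ± 0.66). For Mt1 the 2 probes changed by 2.21 and 9.17. S100a10 and S100a11, partners of annexins, rose by 4.67 and 3.18. Of the 13 genes, 7 were higher and none lower with slide as a fixed block.

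Metallothionein genes respond to metals through the metal response element. It was searched here as TGCNCNC, with N any base, a pattern that may be looser than the element. The 250 bases before each RefSeq start are shown because these were among the largest rises and lie side by side (GRCm38.p6, chr8:94178839-94179088 for Mt1 and chr8:94172368-94172617 for Mt2, both on the plus strand). Capitals mark the matches on either strand, with overlapping matches counted apart.
Mt1: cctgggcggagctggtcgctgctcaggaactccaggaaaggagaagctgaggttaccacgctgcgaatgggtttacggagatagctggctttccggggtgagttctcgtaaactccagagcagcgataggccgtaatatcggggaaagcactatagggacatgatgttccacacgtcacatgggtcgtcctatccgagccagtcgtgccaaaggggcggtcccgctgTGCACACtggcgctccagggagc
Mt2: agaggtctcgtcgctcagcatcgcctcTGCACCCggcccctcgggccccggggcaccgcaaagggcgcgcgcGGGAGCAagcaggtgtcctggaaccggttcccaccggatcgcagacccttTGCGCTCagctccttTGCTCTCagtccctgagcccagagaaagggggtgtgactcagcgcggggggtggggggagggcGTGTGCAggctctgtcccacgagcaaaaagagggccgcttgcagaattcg
Mt1 had 1 match in this window and Mt2 had 5. The motif is short, and 14590 of 32851 RefSeq promoters (44.4%) hold at least 1 match in a window of the same length.

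Components of the LIF, oncostatin and STAT3 pathway were higher in culture. This pathway runs from cytokines of the interleukin-6 family through the shared receptor gp130 to the factor STAT3. Of 13 members, 9 were higher and none lower, with a median of 3.67, and 7 to 9 passed when 1 of the 4 arrays was left out. Osmr, the oncostatin M receptor, was at 4.99 and 4.18 in the 19-day culture and -6.37 and -5.39 in the E11.5 progenitors, at least 953-fold higher (limma adjusted p = 0.00146). Il6st, which encodes gp130, was at 4.62 and 5.61 in the 19-day culture and 0.40 and 0.31 in the E11.5 progenitors (4.76 ± 0.36). Stat3 was at 5.997 and 6.02 on the 19-day arrays and 2.55 and 2.19 on the E11.5 arrays (3.64 ± 0.28). Both arrays of each group lay close together for Stat3, and the groups were far apart. Downstream, the co-regulator Bcl3 rose by 6.25, the factor Cebpb by 3.79 and the feedback inhibitor Socs3 by 2.60. The receptor chain Lifr (1.11) and the kinase Jak2 (1.83) did not pass. A fixed slide block left 6 of the 13 higher and none lower.

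**Figure D3:**
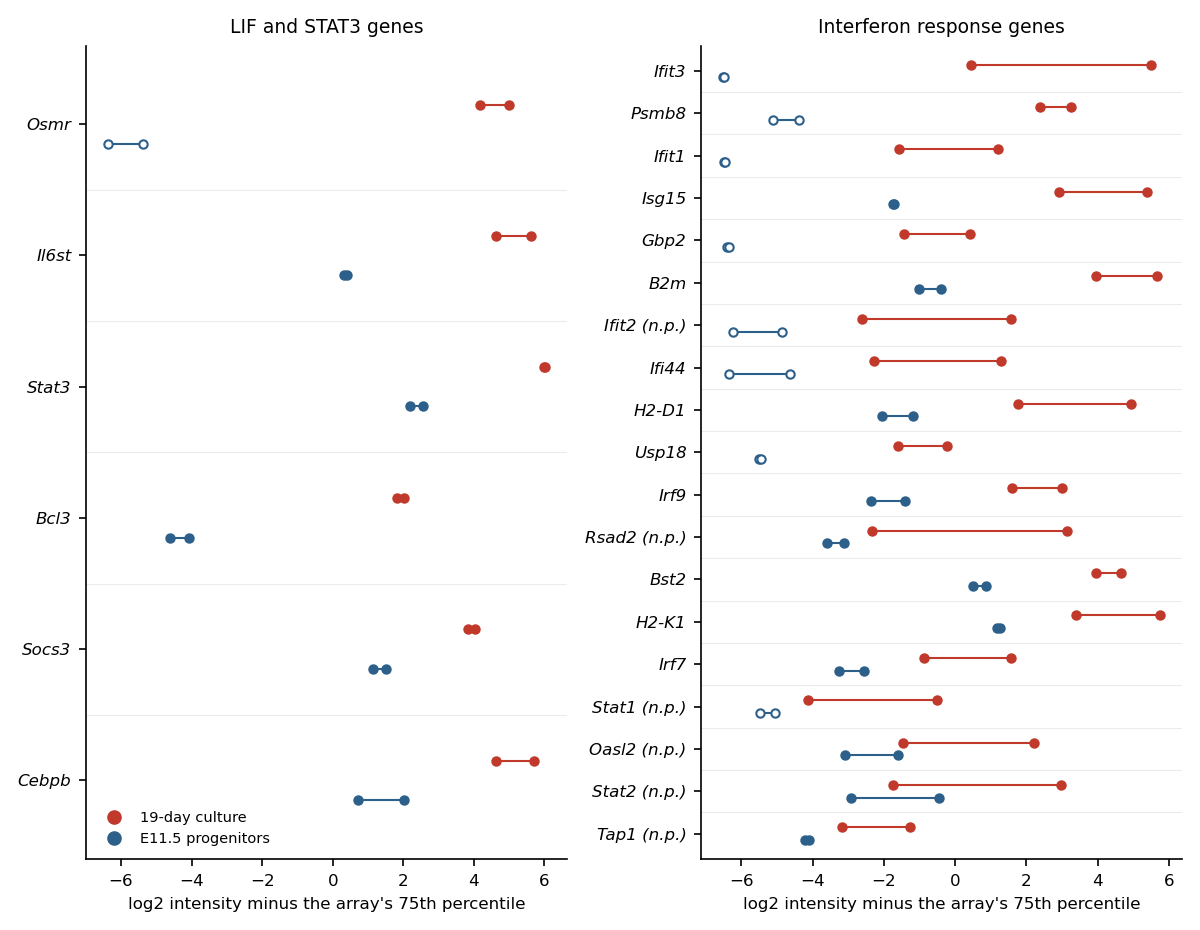
Log2 intensity of cytokine pathway and interferon response genes on each array, relative to the array's 75th percentile (red, 19-day culture, above; blue, E11.5 progenitors, below; the 2 arrays of a group joined by a line). Open points mark genes not well above background on either array of the group. The 19-day arrays lie close together for Stat3 and far apart for Ifit3.

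Interferon response genes, which cells switch on when interferon reaches them, were higher as well, but the 2 cultures differed. Of 19 members, 13 were higher and none lower, with a median of 4.55. Without the second 19-day array the count was 5, without the first E11.5 array 5, without the second 6, and without the first 19-day array 15. It was 8 with slide as a fixed block. The summed scaled intensity was 65 and 300.4 on the 2 cultures in the order of their replicate numbers, against 6.64 and 6.65 in the E11.5 progenitors. Isg15, a ubiquitin-like modifier, was at 2.91 and 5.39 in the 19-day culture and -1.73 and -1.71 in the E11.5 progenitors (5.88 ± 0.98, limma adjusted p = 0.00749). B2m, the light chain of class I molecules, was at 3.94 and 5.66 in the 19-day culture and -0.39 and -1.02 in the E11.5 progenitors (5.51 ± 0.54). Bst2, the membrane protein tetherin, was at 3.97 and 4.66 on the 19-day arrays and 0.51 and 0.87 on the E11.5 arrays (3.62 ± 0.26). In all 3 the second culture was the higher of the pair and both lay above the sorted cells. These 3, with the immunoproteasome subunit Psmb8 (at least 189-fold) and the protease Usp18 (at least 21.5-fold), passed in each fit with 1 of the 4 arrays left out, and the other 8 each lost the call in at least 1. Usp18 did not pass with the slide block (adjusted p = 0.0680, limma).

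The interferon-stimulated response element, searched on both strands as GAAA, any 2 bases and GAAA again with overlapping matches counted apart, was present in the same 250-base window in 6 of the 12 higher members that have a promoter in the RefSeq table (50%) and in 978 of 32851 promoters overall (2.98%). The members were listed as interferon response genes beforehand, and those that did not pass were not counted apart. These shares therefore do not test a response in the culture. The windows of Isg15 (chr4:156200819-156201068, minus strand) and Bst2 (chr8:71537473-71537722, minus strand) are shown. Of the higher members with a window that passed in every fit with an array left out, they have the most matches, while B2m had 1 match and Psmb8 had 0. Capitals mark the matches.
Isg15: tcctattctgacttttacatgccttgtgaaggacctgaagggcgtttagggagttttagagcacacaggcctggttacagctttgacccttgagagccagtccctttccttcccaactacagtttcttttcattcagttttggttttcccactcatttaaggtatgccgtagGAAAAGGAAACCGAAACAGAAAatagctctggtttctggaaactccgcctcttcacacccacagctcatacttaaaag
Bst2: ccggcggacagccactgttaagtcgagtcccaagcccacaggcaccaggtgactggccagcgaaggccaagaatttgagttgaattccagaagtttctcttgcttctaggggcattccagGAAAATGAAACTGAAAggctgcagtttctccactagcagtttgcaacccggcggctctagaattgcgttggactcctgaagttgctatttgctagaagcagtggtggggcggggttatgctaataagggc
Isg15 had 3 matches, overlaps included, and Bst2 had 2. A match describes these letters and is not a site that was measured.

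Of 15 chemokine and cytokine genes, 6 were higher and none lower, and here the first culture was the higher one, with sums of 336 and 53.4 in the 19-day culture against 20.4 and 22.2 in the E11.5 progenitors. Csf1, the growth factor of macrophages, was at 2.70 and 2.21 in the 19-day culture and -6.35 and -6.22 in the E11.5 progenitors, at least 243-fold higher. The monocyte attractant Ccl2 was at 3.61 and 0.85 in the 19-day culture and -2.26 and -2.10 in the E11.5 progenitors (4.41 ± 0.85). The neutrophil attractant Cxcl5 was at 7.65 and 3.79 on the 19-day arrays and -2.19 and -2.67 on the E11.5 arrays, and its call was lost without the first 19-day or the second E11.5 array (adjusted p up to 0.0803). The count for the list was 3 without the first 19-day array or without either E11.5 array, and 2 with slide as a fixed block, where Ccl2 did not pass (adjusted p = 0.130, limma).

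Of 27 cell cycle genes tested, 19 were lower in the 19-day culture and none higher, with a median change of -1.93, a summed scaled intensity of 120.0 and 147 in the 19-day culture and 449 and 488 in the E11.5 progenitors, and 14 to 19 calls with 1 of the 4 arrays left out; 7 passed with slide as a fixed block. Mcm7, a subunit of the replicative helicase, was at 3.36 and 3.29 in the 19-day culture and 5.82 and 6.15 in the E11.5 progenitors (-2.66 ± 0.16, limma adjusted p = 0.000209). Rrm2, which makes deoxynucleotides, was at 3.05 and 3.04 in the 19-day culture and 5.08 and 4.96 in the E11.5 progenitors (-1.98 ± 0.18). Cdc6, which loads the helicase onto origins, was at -0.51 and -0.22 on the 19-day arrays and 2.88 and 2.69 on the E11.5 arrays (-3.16 ± 0.28). The 2 cultures lay close together for all 3, wholly below the sorted cells. Bub1, a kinase of the spindle checkpoint, changed by -3.43 and Mcm6 by -1.98. The proliferation marker Mki67 did not pass (0.16), nor did the cyclin Ccnb2 (-0.68).

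**Figure D4:**
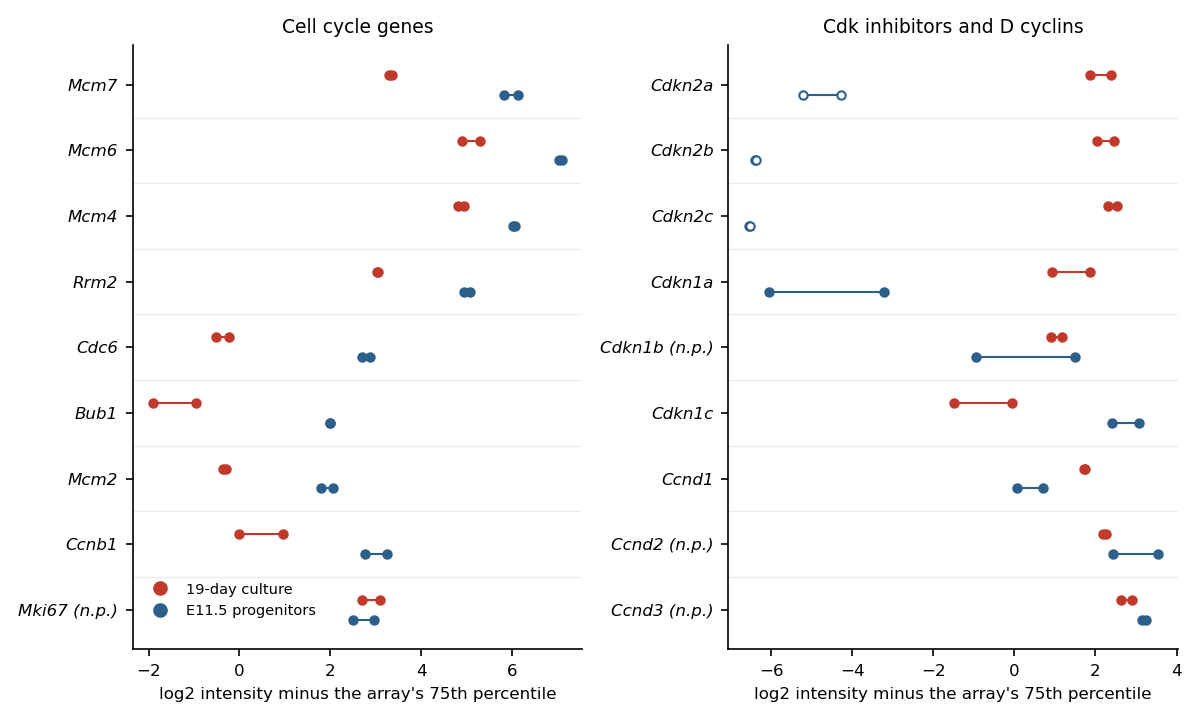
Log2 intensity of cell cycle genes and of Cdk inhibitors and D cyclins on each array, relative to the array's 75th percentile (red, 19-day culture, above; blue, E11.5 progenitors, below; the 2 arrays of a group joined by a line). Open points mark genes not well above background on either array of the group, and n.p. marks genes not past the threshold; replication genes lie lower and Cdkn2a, Cdkn2b and Cdkn2c higher in the 19-day culture.

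Of 10 Cdk inhibitors and D cyclins, 5 were higher and 1 lower; the call for the D cyclin Ccnd1 (1.34) held in 1 of the 4 fits with an array left out. With slide as a fixed block 2 were higher, Cdkn2a and Cdkn2c, while Ccnd1, Cdkn2b and Cdkn1a lost the call (adjusted p = 0.373, 0.0912 and 0.158, limma). The 1 lower member there was the D cyclin Ccnd2 (-3.50 ± 0.62, adjusted p = 0.0322, limma), which did not pass without the block (adjusted p = 0.57, limma). Cdkn2b, which encodes p15, was at 2.05 and 2.45 in the 19-day culture and -6.39 and -6.38 in the E11.5 progenitors, at least 210.0-fold higher. Cdkn2a, the locus of p16 and Arf, was at 2.38 and 1.86 in the 19-day culture and -4.27 and -5.21 in the E11.5 progenitors, at least 116-fold higher. Cdkn2c, which encodes p18, was at least 237-fold higher and Cdkn1a, which encodes p21, rose by 6.03. At 8 days Cdkn2c and Cdkn1a were higher than at E11.5 (7.86 and 5.11), against fitted 19-day changes of 8.96 and 6.03. Cdkn2a had not passed at 8 days (1.60, adjusted p = 0.135, limma) and was higher at 19 days than at 8 days (5.26, adjusted p = 0.00282, limma). Cdkn1c, the imprinted gene of p57, was the member that fell, at -0.068 and -1.48 in the 19-day culture and 3.08 and 2.40 in the E11.5 progenitors (-3.52 ± 0.45), with an adjusted p of 0.0695 with the slide block (limma).

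Targets of the tumour suppressor p53 were higher, 11 of 16 with none lower and a median of 2.55. Between 7 and 11 passed with 1 of the 4 arrays left out, fewest without the first 19-day array, and 3 with slide as a fixed block. Zmat3, an RNA-binding p53 target, was at 2.78 and 2.37 in the 19-day culture and -0.88 and -1.23 in the E11.5 progenitors (3.63 ± 0.50, limma adjusted p = 0.00378). Mdm2, the ligase that restrains p53, was at 3.82 and 3.17 on the 19-day arrays and 1.29 and 1.71 on the E11.5 arrays (1.99 ± 0.27). The receptor Eda2r was at least 51.6-fold higher, Ccng1 rose by 3.91 and Trp53inp1 by 1.69. Cdkn1a belongs to this list too, so its rise counts in both. Zmat3, Mdm2 and Ccng1 did not pass with the slide block (adjusted p = 0.0860 to 0.115, limma).

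Of 20 glycolysis and hypoxia genes, 9 were higher and none lower, with a median of 0.37, and the count was 4 without the first 19-day array, 6 without either E11.5 array and 3 with slide as a fixed block. The vasodilator peptide Adm, a hypoxia target, was at 1.09 and 2.32 in the 19-day culture and -2.50 and -2.14 in the E11.5 progenitors (4.02 ± 0.47). Slc2a3, a glucose transporter, was at least 46-fold higher (adjusted p = 0.0633 with the slide block, limma), and the glycolytic enzyme Tpi1 rose by 1.22. All 3 had risen by 8 days (4.005, 7.19 and 1.31). The fitted 19-day change of Slc2a3, on the same measure as 7.19, was 6.02. The glycolytic mutase Pgam1 did not pass (0.17). Of 19 cholesterol synthesis genes, 4 were higher, and 2 without the first E11.5 array or either 19-day array. The desaturase Sc5d rose by 2.54. None of the 19 passed with slide as a fixed block, Sc5d included (adjusted p = 0.163, limma). In the amino acid and endoplasmic reticulum stress list 2 of 14 were higher, a count that was 0 without the first 19-day array or with the slide block and 1 without the second array of either group.

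Of 16 respiratory chain genes, 10 were lower and none higher, with a median of -0.66, among them Cox5a (-1.17 ± 0.20), cytochrome c (Cycs, -1.06 ± 0.16) and the ATP synthase subunit Atp5a1 (-0.77 ± 0.13). The 10 lay above the 75th percentile on all 4 arrays. Their count was 5 after quantile normalization, 4 without the first 19-day array, 5 without the first E11.5 array, 6 without the second 19-day array and 2 with slide as a fixed block.

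Of 9 genes in the fetal timing list, 5 were lower and none higher (median -2.09). Hmga2, a chromatin protein of fetal growth, was at 2.70 and 2.77 in the 19-day culture and 4.87 and 4.78 in the E11.5 progenitors (-2.09 ± 0.26, limma adjusted p = 0.00236). Igf2bp1, an RNA-binding protein of embryonic tissue, was at 0.63 and 0.18 in the 19-day culture and 3.69 and 4.82 in the E11.5 progenitors (-3.85 ± 0.53), and Lin28b, the inhibitor of let-7 processing, was at least 19.9-fold lower. All 3 were lower at 8 days too (-2.06, -2.65 and -3.44). The fitted 19-day change of Lin28b, on the same measure as -3.44, was -4.83. Igf2bp3 did not pass (-2.58). Under a fixed slide block 3 members were lower, and Igf2bp1 lost the call (adjusted p = 0.0989, limma).

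Imprinted genes, expressed from 1 parental copy, fell in 8 of 16 cases and rose in 2, with a median of -0.76. Igf2, the paternally expressed growth factor, was at 1.67 and 2.46 in the 19-day culture and 5.82 and 5.80 in the E11.5 progenitors (-3.75 ± 0.26, limma adjusted p = 0.000335). The noncoding RNA H19 beside it was at 6.42 and 6.56 on the 19-day arrays and 8.27 and 8.37 on the E11.5 arrays, and its 7 probes changed by -2.48 to -1.52. Peg3, a zinc finger gene, changed by -2.76, and Nnat by -3.25. Peg10 and its neighbour Sgce were the pair that rose, by 3.16 and 2.09. Without the second E11.5 array 5 members were lower than in the E11.5 progenitors, and with slide as a fixed block 4 were lower and 1 higher, Sgce losing the call (adjusted p = 0.0580, limma). Of the 16, 7 were lower at 19 than at 8 days, Igf2 and H19 among them, against 5.42% of all genes.

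In the insulin-like growth factor axis, 5 of 11 genes were higher and 2 lower. The binding protein Igfbp3 was at 3.49 and 2.43 in the 19-day culture and -6.39 and -6.39 in the E11.5 progenitors, at least 344-fold higher, and Igfbp7 rose by 3.03. Igfbp5 was at -4.92 and -0.60 in the 19-day culture and 4.34 and 4.12 in the E11.5 progenitors and fell by 6.99, with the 2 cultures far apart. In the slide-block fit 3 of the 11 were higher and 1 lower, and Igfbp5 did not pass (adjusted p = 0.163, limma). Of 12 chromatin enzymes, 5 were lower and none higher: the histone methyltransferase Ezh2 was at -1.49 and -0.72 on the 19-day arrays and 2.32 and 2.55 on the E11.5 arrays (-3.53 ± 0.33), and Uhrf1, which carries DNA methylation through replication, at 3.35 and 4.11 in the 19-day culture and 6.82 and 6.98 in the E11.5 progenitors (-3.17 ± 0.33). The count of lower enzymes was 3 without the first 19-day array or with slide as a fixed block. None of the 12 had passed at 8 days, and 5 were lower at 19 than at 8 days, against 5.42% of all genes. Of 9 Myc family genes, 4 were lower, with Mycn, which nephron progenitors use, at 2.96 and 3.14 in the 19-day culture and 5.15 and 4.44 in the E11.5 progenitors (-1.74 ± 0.26). The count was 1 with the slide block, where Mycn did not pass (adjusted p = 0.0912, limma).

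Among signalling pathways, the transforming growth factor beta list had 7 of 13 genes higher and 2 lower (median 2.80), with 1 lower without the first 19-day array, without either E11.5 array or with slide as a fixed block. The activin subunit Inhba was at 2.27 and 1.84 in the 19-day culture and -6.48 and -6.44 in the E11.5 progenitors, at least 184-fold higher, and Inhbb rose by 3.49. The ligand Tgfb2 was at 2.89 and 1.88 on the 19-day arrays and -0.13 and -0.70 on the E11.5 arrays (2.80 ± 0.38), and the receptor Tgfbr2 at 3.21 and 2.65 in the 19-day culture and -0.46 and 0.30 in the E11.5 progenitors (3.02 ± 0.31). Ltbp1, which stores latent ligand in matrix, changed by -1.56, and its 2 probes ranged from -1.56 to 0.49. It did not pass with the slide block (adjusted p = 0.105, limma). In the bone morphogenetic protein list, 4 of 16 were lower and none higher. The target gene Id1 was at 1.83 and 1.42 on the 19-day arrays and 3.39 and 3.50 on the E11.5 arrays (-1.82 ± 0.31). With slide as a fixed block Id1 changed by -1.03 ± 0.42 and did not pass (adjusted p = 0.218, limma). Id2 was at 0.045 and 0.20 on the 19-day arrays and 2.71 and 2.80 on the E11.5 arrays (-2.63 ± 0.24).

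The shares called in 6 other lists ran from 1 of 13 to 5 of 9 members, against 16.9% over all genes. Of 13 Wnt targets 1 was higher, Ccnd1, which counts in the nephron induction and Cdk inhibitor lists too. The feedback inhibitor Nkd1 did not pass (1.36). Of 14 feedback genes of the fibroblast growth factor pathway, 2 were higher and 1 lower. In the Notch list 2 of 14 genes were higher and 3 lower, and 1 of 11 retinoic acid genes was higher and 3 lower, among them Crabp2, which carries retinoic acid to the nucleus (-2.56). Of 9 genes of the aryl hydrocarbon and oxidative response, 4 were higher and 1 lower: Cyp1b1, a cytochrome P450 induced through the aryl hydrocarbon receptor, was at 5.40 and 4.89 in the 19-day culture and -6.25 and -6.24 in the E11.5 progenitors, at least 1566-fold higher. Immediate early and heat shock genes had 2 of 18 higher and 3 lower. In each of these 6 lists some count moved by more than 1.5 times when the first 19-day array or another of the 4 was left out. Under a fixed slide block, 1 aryl hydrocarbon member and 1 Notch member were higher and none of either list lower. There 1 Wnt target and 1 retinoic acid gene were lower and none of either list higher. In the same fit 2 feedback genes were higher and none lower, and 2 immediate early and heat shock genes were higher and 1 lower.

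Over all genes with a RefSeq symbol, the highest bounds belonged to Ctla2a, a relative of the cathepsin propeptide (at least 5494-fold higher without slide in the fit), Mmp3, Cyp1b1, Bgn, Plau, Osmr, the complement protease C1ra (at least 931-fold) and Anxa1, a phospholipid-binding protein (at least 877-fold). At the other end were Meox1, Rasef (at least 751-fold lower), Col2a1, the protocadherin Pcdh8 (at least 319-fold lower), Cecr2 (a call that held in 2 of the 4 fits with an array left out), Zmat4 (at least 146-fold lower), Hba-x and Minar2 (at least 107-fold lower). In the slide-block fit the change of Ctla2a was 6.67 ± 2.10, against 13.15 without it, and its call was lost (adjusted p = 0.128, limma). Calls for Cecr2 and Minar2 were lost there as well (adjusted p = 0.109 and 0.0793, limma), as was that for Pcolce, given next (adjusted p = 0.0517, limma). Among genes well above background on all 4 arrays, the rises outside the lists above included Plac8 (8.04 ± 0.37), the interferon-induced membrane protein Ifitm3 (7.32 ± 0.66), the stress-induced chromatin protein Nupr1 (7.02 ± 0.87), the procollagen enhancer Pcolce (7.005 ± 0.80) and the caveolar coat protein Cavin1 (6.92 ± 0.46). The falls included Cd24a, a surface glycoprotein of progenitor cells (-7.67 ± 0.87), the proteoglycan Spock2 (-6.99 ± 0.75), the muscle enolase Eno3 (-6.30 ± 0.60), the adhesion protein Flrt3 (-6.21 ± 0.78), the activin receptor Acvr2b (-5.95 ± 0.50) and the hyaluronan synthase Has2 (-5.07 ± 0.69).

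The changes from E11.5 at 8 and at 19 days share the same E11.5 arrays, and only the direct comparison tests what came between. Over all genes, 2.68% were higher and 5.42% lower at 19 than at 8 days. That contrast called 2124 genes, 595 without the newborn groups and 0 with the compared groups fitted alone. Matrix genes accounted for 16 members higher at 19 than at 8 days, S100 and metallothionein genes for 7 of 13, actin genes for 7 of 18 and p53 targets for 5 of 16. Lower at 19 than at 8 days were 9 of 27 cell cycle genes, 5 of 12 chromatin enzymes and 7 of 16 imprinted genes. In the glycolysis and hypoxia list, none of 20 was higher and 1 was lower at 19 than at 8 days.

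**Figure D5:**
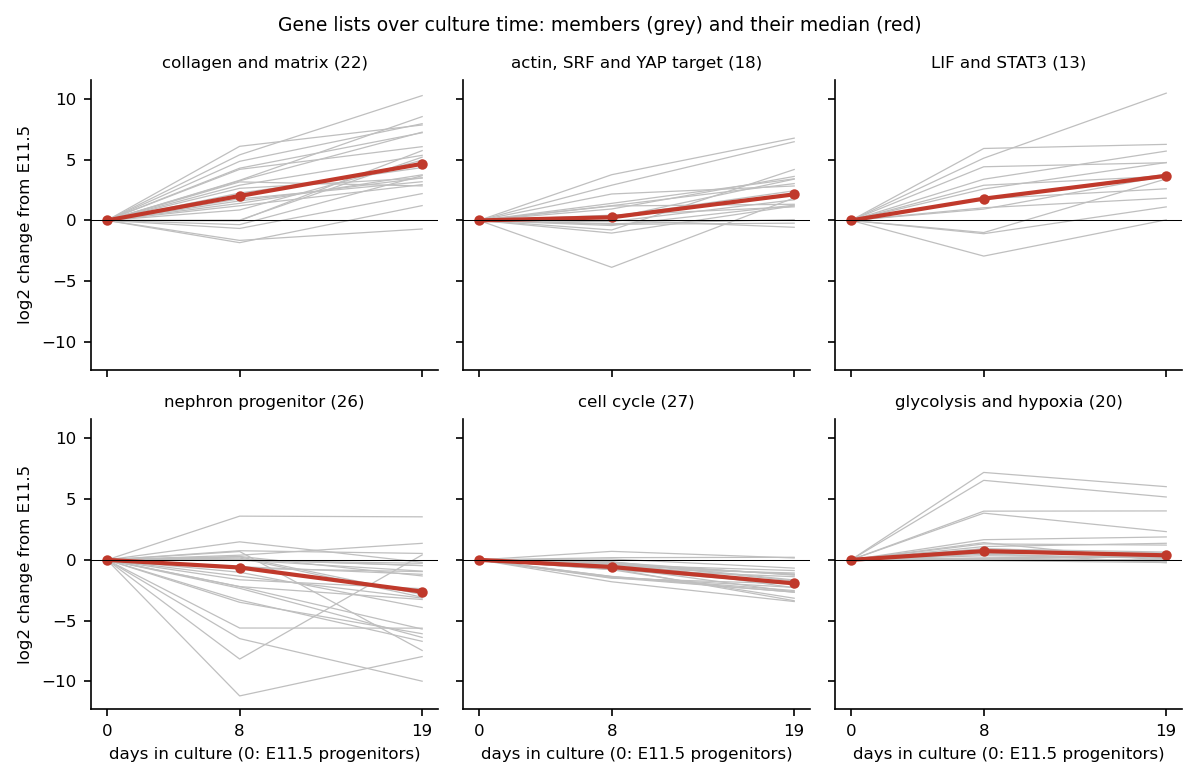
Log2 change from the E11.5 progenitors (vertical axis) at 0, 8 and 19 days of culture (horizontal axis) for each tested member of 6 gene lists (grey lines) and their median (red). Matrix, actin and cytokine medians are higher at 19 than at 8 days, progenitor and cell cycle medians are lower, and the glycolysis and hypoxia median is 0.72 at 8 days and 0.37 at 19 days.

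Of 9 skeletal muscle genes tested, 4 were higher at 8 days than at E11.5, and the same 4 were lower at 19 than at 8 days. Both comparisons use the 8-day arrays, and over all genes their shares were 2.76% and 5.42%. The 4 were Tnnt1, Tnnc1, Tnnt2 and Actc1, and the list had sums of 4.83 and 4.77 in the E11.5 progenitors, 19.47 and 26.2 in the 8-day culture and 7.69 and 5.8 in the 19-day culture. The slow troponin Tnnt1 was at -2.55 and -2.50, then 2.04 and 3.003, then -0.67 and -1.25 at 0, 8 and 19 days, and the cardiac and slow troponin Tnnc1 at -1.63 and -1.96, 1.58 and 0.30 and -1.27 and -1.73. Both changes were tested: Tnnt1 was 5.05 above its E11.5 level at 8 days (adjusted p = 0.00739) and changed by -3.48 from 8 to 19 days (adjusted p = 0.0132, limma).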

How the data were processed

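The deposited values are single-colour Agilent spot intensities from the scanner (Feature Extraction 11.5.1.1, per the submitters' processing notes and the file headers), processed by that software and not normalized between arrays. Per the labels, RNA was amplified with an Ovation Pico kit and labelled with Cy3. One newborn progenitor file carried intensities with 3 significant digits.

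Control and outlier spots were left out, log2 intensity was set relative to each array's 75th percentile, spots of a probe were averaged, and each gene took the values of its brightest probe on average. Of 55681 probes, 28361 were named by accession, 3186 by symbol and 270 by synonym from RefSeq, and 23864 kept the file's name, giving 34600 gene names. The 26222 genes well above background on both arrays of a group were tested with limma 3.58.1 in R 4.3.3 (group means over 10 arrays, intensity trend, 5 residual and 2.49 prior degrees of freedom), two-sided, with Benjamini-Hochberg adjusted p under 0.05. The fit was tested on simulated data. The number of arrays limits precision.

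The gene lists and members were chosen with earlier results of these data known. Genes named are the largest changes and bounds, list members with the smallest p and the brightest that did not pass; Thbs1, Postn, Timp1, H19, Ltbp1 and Tnnt2 were added after their values were seen. Alternatives covered scaling, background, filters, probe choice, slide, replicate block and left-out arrays; a fit without the newborn groups was chosen after seeing the data. Replicate numbers did not pair the samples. Promoter sequences are RefSeq's (GRCm38.p6). Values of 2 genes are not reported here.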

Additional observations from a re-analysis of the deposited data

Results flagged for a closer look

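There were 22 genes that passed the threshold against the E11.5 progenitors in opposite directions at 19 and at 8 days, and the change between the cultures was itself past the threshold for each (limma, adjusted p under 0.05). The 2 changes share the E11.5 arrays, so the values given next are the difference of the 19-day from the 8-day culture in log2 units.

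Of these, 5 were higher in the 19-day culture. Ccn1, a matricellular YAP target, was at 2.97 and 3.29 at day 0, -0.84 and -0.60 at day 8 and 5.61 and 4.36 at day 19, a difference of 5.71. The D-type cyclin Ccnd1 was at 0.058 and 0.71, -1.52 and -1.02 and 1.71 and 1.75 at the same times, a difference of 3.00. Both lay lowest on the 8-day arrays and highest on the 19-day arrays. The lipase co-activator Abhd5 (4.42), Fam78b (5.64) and Mfge8 (1.60), which tags dying cells for uptake, had the same pattern.

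Lower in the 19-day culture were the homeobox gene Six3 (-2.19), at 1.17 and 1.22, 2.45 and 2.46 and 0.23 and 0.30 at days 0, 8 and 19, the glyoxalase Hagh (-2.58), Mlf1 (-3.46) and the phosphatase Ppm1l (-3.49). Cardiac actin Actc1 was lower by a fitted difference of -8.24, with no probe above background at day 0 or day 19, so only its signal at day 8 (1.17 and 2.10) was measured and its direction at 19 days against E11.5 has no meaning. The others given here were ribosomal protein genes and gene models: Rps24 (-0.689), Rpl12 (-0.73), Rplp2 (-0.775), Rps16 (-0.789), Rpl36a (-0.824), Fau (-0.833), Rps7 (-0.905), Gm9457 (-0.771), Gm8210 (-0.98), Gm12508 (-1.13) and Gm13194 (-1.20). Such gene models can share sequence with ribosomal protein genes, and probes may not tell copies apart. The 19-day changes against E11.5 of Rpl12, Rplp2, Rps16 and Fau turned sign after quantile normalization. Those of Rps24 and Rpl36a shrank to -3.6e-15 and -0.015 at the least over the alternative fits.

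The pattern needs a call at 19 days against E11.5. That call was lost in all 4 fits with 1 of those arrays left out for Six3 (adjusted p up to 0.0911), Rps7 (0.144) and Gm8210 (0.174), and it held in 1 for Ccn1, Ccnd1, Fam78b, Mfge8, Hagh, Gm12508, Rpl12 and Rplp2, in 2 for Mlf1, Ppm1l and Fau, and in 3 for Gm9457. It held in all 4 for Abhd5, Actc1, Rps24, Rps16, Rpl36a and Gm13194 (limma). With slide as a fixed block it held for Abhd5, Actc1, Rps24, Fau, Gm9457 and Gm13194 and was lost for the others named (adjusted p = 0.0641 to 0.645, limma).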

How the results depend on the processing

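Main counts for the 19-day culture against the E11.5 progenitors were 1902 genes higher and 2518 lower, and 2124 genes differed between the 19-day and 8-day cultures. With a fixed slide block they were 696, 796 and 1706, and 1241 of the 4420 genes called either way at 19 days were called there too. Among called genes named in the text, 164 in number, 100 were called with that block, and the fold moved by over 1.5 times for 74. A test against a change of 1 log2 unit gave 585, 331 and 160. Fitting the compared groups alone gave 664, 642 and 0 by limma, where 4984 genes had an unadjusted p under 0.05 for the last. Without the newborn groups they were 1114, 1269 and 595, and without the intensity trend 1681, 1673 and 763. With any 1 array of these 3 groups left out the counts ranged from 1076 to 1933 higher, 1299 to 2611 lower and 882 to 2231 between the cultures. The other alternatives moved each count by less than 1.5 times. Of the genes called, 43.0% were higher, against 51.5% after quantile normalization and 50.1% without the intensity trend, 36.1% when all 4 arrays had to be above background, and 63.9% with the 1-unit test.

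Same-numbered arrays did not deviate together (r = -0.015 for the 19-day culture and the E11.5 progenitors), so the numbers do not pair the samples. The replicate block gave 1791, 2399 and 1905.

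With a fixed slide block the log2 changes of Dpf3 (2.45), Mki67 (-0.012), Pgam1 (-0.0491), Tnnt2 (0.59), Wnt4 (-0.38) turned sign. With a random slide block the log2 changes of Dpf3 (0.20), Tnnt2 (0.0677) turned sign. After quantile normalization the log2 changes of Eya1 (0.11), Fau (0.11), Rpl12 (0.014), Rplp2 (0.037), Rps16 (0.0335), Tnnt2 (0.0224) turned sign. With low values raised to the floor the log2 change of Tnnt2 (0.0195) turned sign. Over fits with 1 array left out the change crossed 0 for Bmper (-0.84 to 1.66), Cd68 (-0.45 to 2.16), Dpf3 (-0.94 to 0.52), Gas1 (-0.0257 to 1.08), Itga8 (-2.70 to 0.78), Mki67 (-0.0758 to 0.39), Pla2g7 (-3.48 to 0.83), Tmem100 (-3.66 to 2.71), Tnnt2 (-1.05 to 1.00). The cause was not tested.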
